A study of Sus scrofa with 4 samples.

Results

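Ribosomal protein genes were examined as a reference set, taken beforehand to be constantly open. The open chromatin maps were those of porcine fetal fibroblasts (PFFs), the donor cells of pig somatic cell nuclear transfer. The set holds the protein-coding genes on chromosomes 1 to 18 of RefSeq (Sscrofa11.1) whose symbol is RPL or RPS followed by digits, with an optional A, X, L or P and without the RPS6K kinases. By this rule, which uses symbols only, 72 of 18722 genes were members, with 42 of the large subunit (RPL) and 30 of the small subunit (RPS). The symbol RPL18 occurred at 2 places, on chromosomes 1 and 6. A member counted as open in a library when a peak overlapped its gene model, widened by 1 kb on both sides, by at least 1 bp. The peak of the highest −log10 p in that window is called its strongest peak.

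The assay was ATAC-seq, where a transposase (Tn5) inserts sequencing adapters into accessible DNA. The 4 libraries came from serum-starved skin fibroblasts: 2 of wild-type genotype with the plasmid pTK-642 (control 1 and control 4) and 2 that over-expressed BRG1 with pTK-642-BRG1 (BRG1 1 and BRG1 4). BRG1 (gene SMARCA4) is the motor subunit of BAF complexes, which move nucleosomes, and the study asked how its over-expression bears on the openness of donor cell chromatin. No label states that the libraries come from separate cultures, so p-values measure only the spread between these libraries, which may be technical. Where 4 values stand in a row, control comes before BRG1 and number 1 before number 4. The lists held 107475, 105954, 96367 and 90851 peaks in control 1, control 4, BRG1 1 and BRG1 4, and absolute depth is unknown. BRG1 4 stood apart, with a median peak width of 541 bp against 396 to 404 bp in the other 3. Of 12 fibroblast marker genes, 11 had a peak in all 4 libraries, and POSTN had 1 in BRG1 4 alone. Of 19 matched marker genes of other cell types, 13 had a peak in all 4 libraries as well, while KRT5, CD79A, TYR and MYF5 had none, so that presence of a peak near a gene does not separate these cell types.

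A ribosome is built from a small subunit, which reads the mRNA, and a large subunit, which joins amino acids. Nearly all of their proteins are needed in equal number, and most are encoded by short, strongly transcribed genes whose mRNAs begin with a pyrimidine tract (TOP mRNAs) and are translated under the control of mTOR. In mammals the working genes are scattered over the chromosomes and have many inactive copies made from spliced mRNA, which makes reads from near-identical copies hard to place. The members lay on 16 of the 18 chromosomes, with 12 on chromosome 6, 11 on chromosome 1 and none on chromosomes 10 and 18. Their models had a median length of 3981 bp, against 20737.5 bp for all genes.

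Ribosomal protein genes were open with few exceptions, and the exceptions were the same in every library. A peak lay within 1 kb of 70 of the 72 members in each of the 4 libraries, and these were the same 70 genes. Among all 18722 genes the share with a peak in all 4 libraries was 81.5%. Gene length differed between the sets: among the 2886 genes no longer than the median member, 42.9% had a peak in all 4 libraries, against 34 of the 36 members of that length. No member was called in both libraries of 1 group and in neither of the other, where the backgrounds were 0.0748% for BRG1 alone and 0.513% for control alone. When only 1 kb around either gene end was searched, 69 of 72 members were open in all 4 libraries, against a background of 68.9%. All 30 small subunit genes were open, so both exceptions were large subunit genes.

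The exceptions were RPL10L and the copy of RPL18 on chromosome 1. RPL10L, a copy of RPL10 known for its use in the testis (chromosome 1, 176603177 to 176604116), had its nearest peak 164410 and 164436 bp away in the control libraries and 164412 and 164562 bp away in the BRG1 libraries. The whole neighbourhood of RPL10L was thus without called peaks in both groups. The chromosome 1 copy of RPL18 (84378453 to 84379052) had a model of 600 bp, the shortest of all members. Its nearest peaks lay 4783 and 4893 bp away in the control libraries and 7380 and 7248 bp away in the BRG1 libraries. These were weak peaks, at percentiles of 22.0, 14.1, 1.71 and 14.4 of their own lists. The RPL18 gene on chromosome 6 (53974353 to 53978681) ranked at percentiles of 97.1, 97.4, 96.4 and 97.3 in the same order of libraries. Of the 2 RPL18 models, 1 thus had no peak in its window, and the other ranked a little above the median of the open members in each library. How the authors handled reads that fit several copies is not given in the sources used here, so calls at such copies are uncertain.

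The strongest peaks of the 70 open members ranked high within their lists. The list percentile is the share of peaks of the same library with a lower −log10 p. Its median over the members was 96.6 and 95.9 in the control libraries and 95.5 and 96.1 in the BRG1 libraries. For all genes with a peak the medians were 90.3, 89.9, 89.7 and 88.8. In all 4 libraries 54 of the 70 members ranked in the upper 10% of the list, against a background of 41.1% of the 15252 genes with a peak in all 4. Among genes of such a peak set no longer than the median member the background was 37.7%, against 26 of 34 members. No open member ranked below percentile 79.97 in any library.

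**Figure D1:**
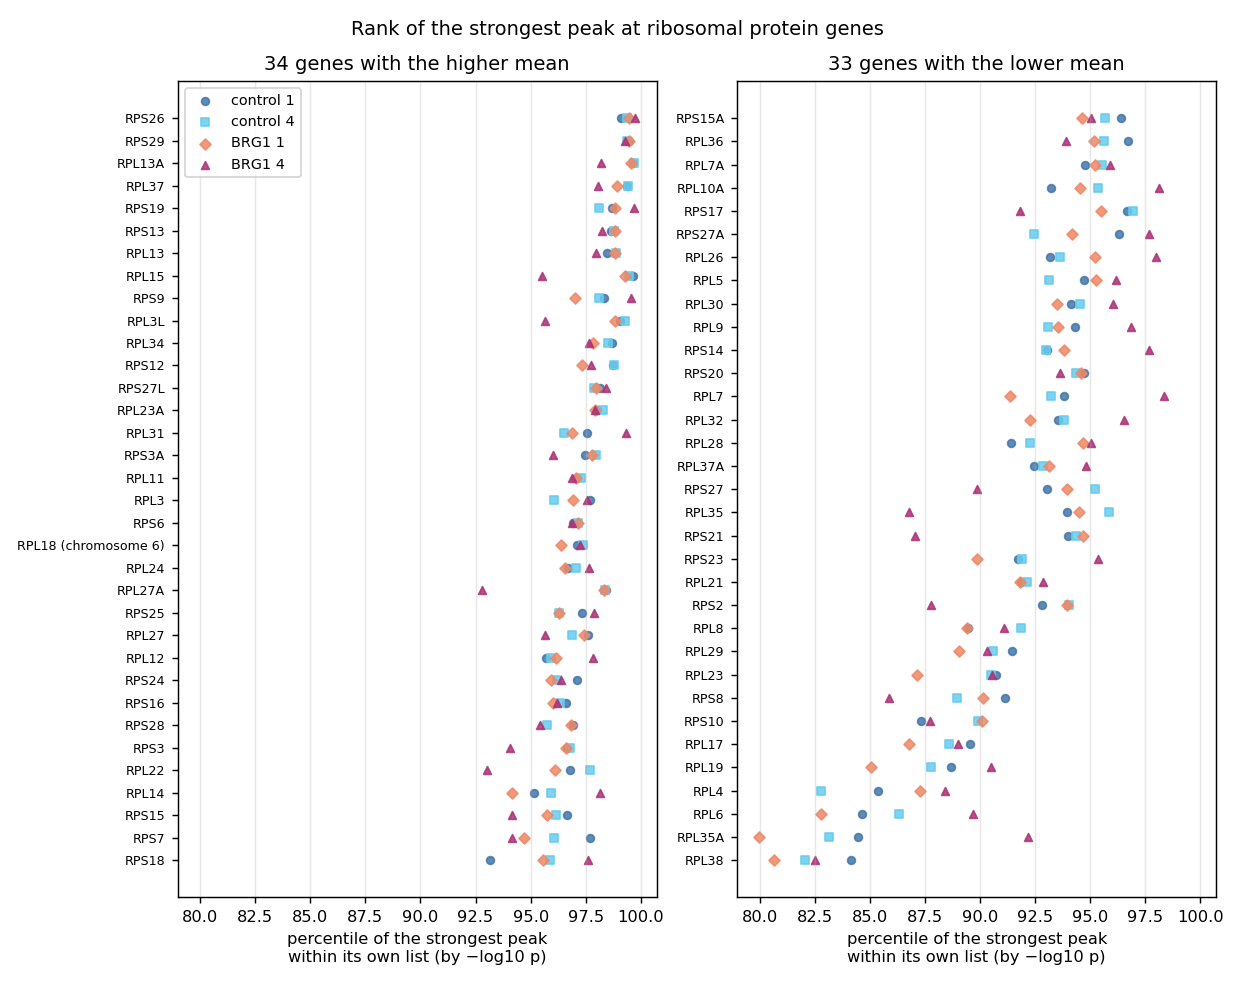
Percentile of the strongest peak within its own list (x axis, by −log10 p) for 67 of the 70 ribosomal protein genes with a peak in all 4 libraries (y axis, ordered by the mean), with 1 marker per library. The points of control 1, control 4 and BRG1 1 lie close together, and those of BRG1 4 lie to either side of them.

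Among the highest by mean percentile were RPS26 and RPS29 of the small subunit and RPL13A of the large subunit. RPS26, whose protein lies at the exit of the mRNA channel (chromosome 5, 21431656 to 21433691), stood at 99.1 and 99.4 in the control libraries and 99.5 and 99.7 in the BRG1 libraries. RPS29 (chromosome 1, 179454923 to 179456847) stood at 99.5, 99.4, 99.5 and 99.3 in the same order. Both BRG1 libraries lay above both controls at RPS26, and the groups overlapped at RPS29. RPL13A, whose protein is also known for a role in silencing inflammatory mRNAs, reached 99.6, 99.7, 99.5 and 98.2, with both BRG1 libraries below both controls.

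Lowest among the open members were RPL38, RPL35A, RPL6, RPL4 and RPL19, all of the large subunit. RPL38, known for its part in the translation of Hox mRNAs (chromosome 12, 6884899 to 6889966), stood at 84.2 and 82.0 in the control libraries and 80.7 and 82.5 in the BRG1 libraries. RPL6 (chromosome 14, 39302447 to 39309239) stood at 84.6, 86.3, 82.8 and 89.7. RPL35A (chromosome 13, 134588288 to 134591873), a gene of Diamond-Blackfan anaemia, stood at 84.5, 83.1, 79.97 and 92.2. RPL35A had the widest spread of the set, 12.2 points, and only BRG1 4 lay above 90. RPL19 stood at 88.7, 87.8, 85.1 and 90.5, with the BRG1 libraries on both sides of the controls. RPL4, whose protein lines the exit tunnel, stood at 85.4, 82.8, 87.3 and 88.4, with both BRG1 libraries above both controls. The strongest peak of RPL4 lay at the end of a neighbouring gene, SNAPC5. These members lay above the middle of their lists. In control 1, control 4 and BRG1 1 they lay below the medians of all genes with a peak (90.3, 89.9 and 89.7). In BRG1 4, where that median was 88.8, RPL38 and RPL4 lay below it and RPL6, RPL35A and RPL19 above it. Ranked among all genes by its strongest peak, RPL38 stood at percentiles of 45.0, 42.9, 42.1 and 47.2.

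In list percentile the 2 subunits differed little. Large subunit members had a median list percentile of 94.7, 95.6, 95.2 and 96.0 in control 1, control 4, BRG1 1 and BRG1 4. Small subunit members had 96.8, 96.2, 96.0 and 96.3. Ranked instead among all genes by their strongest peak, large subunit members had median percentiles of 71.8, 76.2, 75.2 and 79.8, those without a peak included. Small subunit members had 81.7, 79.7, 79.3 and 81.9 on that scale. The small subunit was higher in each library, most of all in control 1, and this was not tested, since genes are not replicates. The 18 listed members in which variants cause Diamond-Blackfan anaemia, a failure of red cell formation, were all open in all 4 libraries. So were 70 of the 72 members. The median list percentiles of the 18 were 97.0, 96.1, 95.7 and 95.6, close to the 96.6, 95.9, 95.5 and 96.1 of all open members.

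Peaks at the ribosomal protein genes had higher median widths than those of all genes, at about the width of peaks at mitochondrial ribosomal protein genes. The median width of the strongest peak was 961.5 bp and 949 bp in the control libraries and 888.5 bp and 1113.5 bp in the BRG1 libraries. The 74 MRPL and MRPS genes, which build the separate ribosome of mitochondria, had 954.5, 933.5, 915 and 1099.5 bp, and all genes with a peak had 848, 810, 842 and 1010 bp. Members ranged from 436 to 1751 bp. BRG1 4 was wider than the other libraries in all 3 sets. Elongation and TOP mRNA genes had higher medians than the members in each library, at 1216, 1215, 1268 and 1327 bp. Ribosome biogenesis genes had 989.5, 927.5, 923.5 and 1161.5 bp, above the members in all libraries but control 4.

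**Figure D2:**
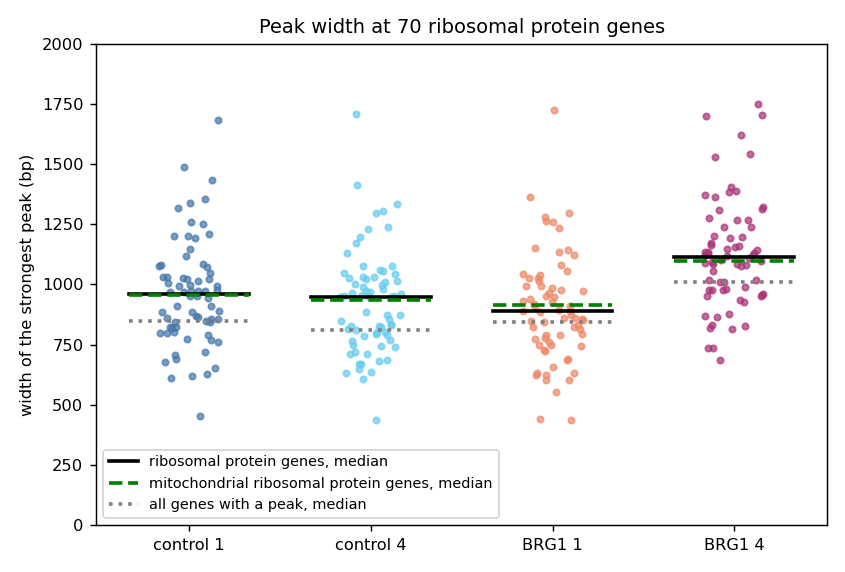
Width of the strongest peak in bp (y axis) in each library (x axis), with 1 point per ribosomal protein gene (n = 70 genes per library) and lines for the medians of 3 gene sets. Medians of the ribosomal and mitochondrial ribosomal sets lie close together in every library, and all medians are highest in BRG1 4.

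The widest peak belonged to RPL7 (chromosome 4, 62602430 to 62605892), at 1683 bp and 1708 bp in the control libraries and 1726 bp and 1704 bp in the BRG1 libraries. It kept its extent in all 4 libraries, which shared a stretch of 1683 bp (62600867 to 62602549). RPL26, whose protein is also known to bind p53 mRNA, followed with 1434, 1415, 1362 and 1541 bp. RPL12 had 1488, 1334, 1298 and 1528 bp, and RPS27A, which encodes a fusion of ubiquitin and a ribosomal protein, had 1357, 1304, 1263 and 1365 bp. RPS29 was the next, with 1316, 1298, 1259 and 1389 bp, and so belonged to both the widest and the highest ranked members. In all 5 genes BRG1 1 and BRG1 4 lay on different sides of at least 1 control.

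Narrow peaks did not have to be weak. RPS3, whose protein guards the entry of the mRNA channel (chromosome 9, 9612939 to 9630404), had the narrowest mean width, with 455 bp and 437 bp in the control libraries and 436 bp and 815 bp in the BRG1 libraries. Its percentiles were 96.7, 96.8, 96.6 and 94.0. The strongest peak of RPS3 was not the same in every library: in BRG1 4 it lay at 9624811 to 9625625, and in control 1 at 9619372 to 9619826. Both places carried a peak in all 4 libraries, so the order of the 2 peaks changed and not their presence. RPS27 had 618, 630, 625 and 829 bp, and RPL6 had 692, 685, 685 and 736 bp. RPL14 had 705, 649, 554 and 833 bp, and the 554 bp peak of BRG1 1 had its summit 88 bp outside the model, while those of the other libraries lay 3241 to 3254 bp inside it. As at RPS3, both places carried a peak in all 4 libraries.

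Most members had a single peak at a single place. Exactly 1 peak in every library was found at 44 of the 70 members, against a background of 23.2%. Among short genes the background was 61.5%, against 27 of 34 members of that length. The strongest peaks of the 4 libraries shared bases at 68 of 70 members, against 84% of genes with a peak in all 4, with RPS3 and RPL14 as the exceptions. The shared stretch of the 68 had a median of 847.5 bp and ran from 431 to 1683 bp. Summits were close too: the distance between the outermost of the 4 summits had a median of 19.5 bp, against 40 bp for all genes with a peak in all 4. It was at most 100 bp for 57 members (81.4%, against 68.8% of all). Mitochondrial ribosomal protein genes were similar, with a median of 20.5 bp and 75.7% at most 100 bp. Of these 74 genes, 40 had exactly 1 peak in every library, and the strongest peaks shared bases at 66. At RPL24, whose protein lies at the joint of the subunits, the 4 summits lay within 2 bp. RPL24, and other genes that the rule for named genes does not cover, were picked with their values known.

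Strongest summits lay at the ends of the gene models. The table used here gives no strand, so a start cannot be told from a termination site, and distance was taken to the nearer end. The median distance was 85 bp and 75.5 bp in the control libraries and 77 bp and 71.5 bp in the BRG1 libraries. Mitochondrial ribosomal protein genes had 59, 60.5, 56 and 73.5 bp in the same order. Within 250 bp of an end lay 52, 53, 54 and 53 of the 70 summits, which is 74.3% to 77.1%, against 43.2% to 46.1% of genes with a peak in all 4. For mitochondrial ribosomal protein genes the share was 64.9% to 67.6%. For short genes it was 52.0% to 53.8%, against 26 to 27 of 34 members of that length. More summits lay outside the model than inside, with 46, 42, 47 and 44 outside. The same count over all genes was not made, so this split cannot be called particular to the members.

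**Figure D3:**
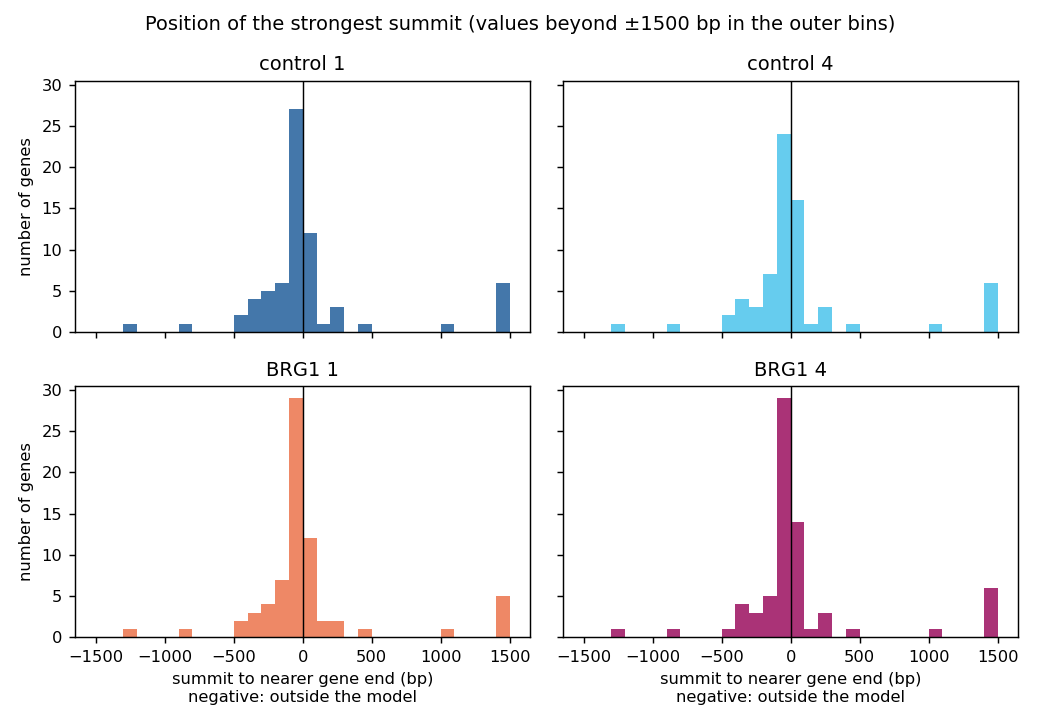
Distance in bp from the strongest summit to the nearer end of the gene model (x axis, negative outside the model) against the number of ribosomal protein genes (y axis, bins of 100 bp), with 1 panel per library. Most summits lie close to 0 in each panel, and values beyond the axis are drawn in the outer bins.

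At 6 members the strongest summit lay more than 1 kb inside the model in all 4 libraries, among them RPS2, RPL30, RPL13A, RPL27A and RPS3. Some of these models were long for the set. RPL30 (chromosome 4, 38702220 to 38720420) was the longest, at 18201 bp, and its summit lay 3541 bp inside in both controls and 3531 bp inside in both BRG1 libraries. RPL13A (chromosome 6, 54551772 to 54568752) had its summit 4189, 4197, 4197 and 4202 bp inside. On the other side, RPL11 had its summit 838 to 855 bp outside the model. RPL11 binds MDM2 together with RPL5 when ribosome assembly fails. A peak that touched the model itself was called in no library at RPL11 and in BRG1 4 alone at RPS15, which left 68 members open when the window of 1 kb was removed.

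Where genes lie close together, a peak can belong to either gene. Another protein-coding model lay within 1 kb of 37 of the 72 members (51.4%, against 37.9% of all genes). The nearest gene end to the strongest summit was that of the member in all 4 libraries at 56 of 70 members, in some at 5 and in none at 9. Among the 15252 genes with a peak in all 4 libraries these shares were 82.5%, 6.04% and 11.4%, close to those of the members. The 9 were RPL4 (nearest to SNAPC5), RPL7A (MED22), RPS28 (NDUFA7), RPS2 (RNF151), RPL3L (MSRB1), RPL5 (EVI5), RPL9 (LIAS), RPL27A (TRIM66) and RPL15 (NKIRAS1). RPL5, RPL9, RPS28 and RPL15 had summits 31 to 174 bp from their own end as well, so that these summits lay close to the ends of 2 genes. At RPL4 (chromosome 1, 164476269 to 164481765) the peak near SNAPC5 had its summit 1231 to 1266 bp outside the model. RPL4 also had a peak at its other end, with a summit 252 to 277 bp inside, at percentiles of 72.0, 63.5, 72.1 and 79.0. By that second peak RPL4 would rank lower still. No peak lay in the windows of 2 members.

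Paralogs that take the place of a ribosomal protein in certain tissues were compared with their common forms. RPL3 is used in all cells, and RPL3L replaces it in heart and skeletal muscle. RPL3 (chromosome 5, 8922697 to 8929768) ranked at 97.7, 96.1, 96.9 and 97.5, with its summit 30 to 64 bp outside an end. RPL3L (chromosome 3, 40004907 to 40016702) ranked at 99.1, 99.3, 98.8 and 95.6, but this peak belonged by position to MSRB1, whose end lay 64 to 185 bp from the summit. Another peak in the window of RPL3L lay 32 to 86 bp from the end of NDUFB10, whose model overlaps that of RPL3L. Only the peak 4782 to 4944 bp inside RPL3L was nearest to its own end, at percentiles of 64.5, 73.8, 65.97 and 45.6. The high rank of RPL3L by the window rule is therefore a value of its neighbourhood. The strongest peak of RPL3L began at the same base, 40016691, in all 4 libraries, which was the case for no other member.

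Other pairs were open at both genes, apart from RPL10L. RPL10 on chromosome X, outside the rule, ranked at 90.4, 88.4, 89.7 and 90.5. RPS27 ranked at 93.0, 95.2, 94.0 and 89.9, and RPS27L, a paralog induced by p53, at 98.2, 97.9, 98.0 and 98.4, above RPS27 in each library. RPL22 ranked at 96.8, 97.7, 96.1 and 93.0, and its paralog RPL22L1 at 97.4, 97.5, 97.0 and 95.6. In contrast, RPL26L1 had a mean of 78.0 against the 93.2 to 98.0 of RPL26, and RPL7L1, whose protein acts in ribosome assembly, had a mean of 84.8 against the 91.4 to 98.3 of RPL7. RPL36A on chromosome X had a mean of 87.8 and RPL36AL on chromosome 1 a mean of 97.5. RPL39 on chromosome X had a mean of 93.6, and RPL39L was not matched in the table by its symbol. Thus the paralog could rank above or below the common form.

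A further 12 ribosomal protein genes, left out by their symbol or by lying on chromosome X, were all open in all 4 libraries. RPLP0, RPLP1 and RPLP2, which form the stalk of the large subunit, had mean percentiles of 97.9, 96.0 and 92.7, and RPSA, also known as a laminin receptor, had 95.4. RPS4X, on chromosome X, had 85.4.

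The other genes of protein synthesis were open in the same way. All 17 elongation and TOP mRNA genes and all 24 ribosome biogenesis genes on chromosomes 1 to 18 had a peak in all 4 libraries, as did all 74 mitochondrial ribosomal protein genes. Median percentiles of the elongation and TOP genes were 94.5, 94.7, 94.0 and 96.3. Those of the biogenesis genes, such as NCL, NPM1 and the polymerase I subunit POLR1A, were 94.6, 94.4, 94.2 and 94.2. Mitochondrial ribosomal protein genes had 92.9, 92.6, 92.7 and 93.2, and 43 of 74 were in the upper 10% of the list in all 4 libraries. Cytosolic ribosomal protein genes had a higher median than these 3 sets in control 1, control 4 and BRG1 1, and the elongation and TOP genes were higher in BRG1 4. By the share in the upper 10% of the list of each library the order was another. This share was 88.6%, 88.6%, 85.7% and 85.7% for cytosolic ribosomal protein genes. Biogenesis genes were higher in each library, with 100%, 95.8%, 91.7% and 87.5%. Elongation and TOP genes had 76.5%, 82.4%, 76.5% and 76.5%, and mitochondrial ribosomal protein genes 67.6%, 66.2%, 68.9% and 68.9%. The order of sets was not tested.

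**Figure D4:**
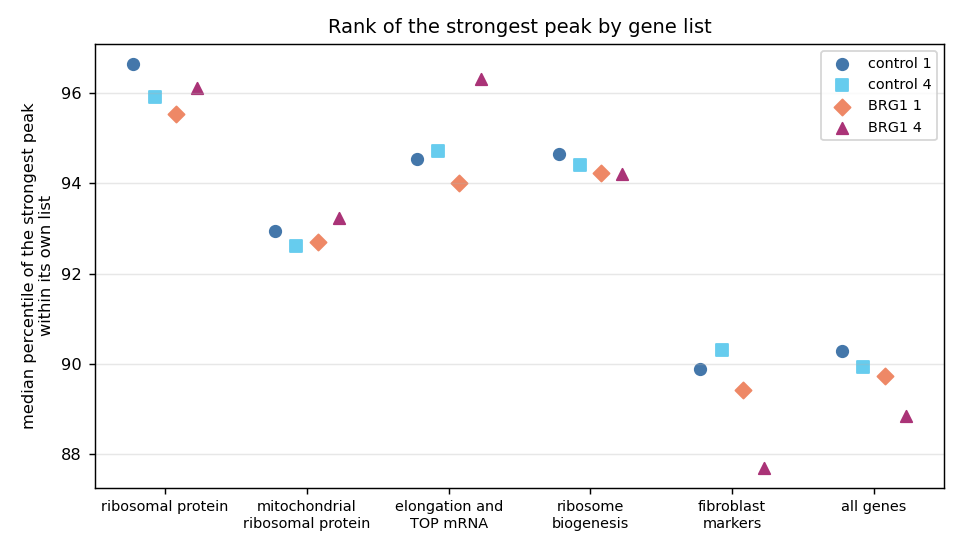
Median percentile of the strongest peak within its own list (y axis, shown from 87) for 6 gene sets (x axis), with 1 marker per library. Ribosomal protein genes lie highest in 3 libraries, while fibroblast markers and all genes lie lowest.

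The groups were then compared with 1 value per library. The median width of the members was 1001 ± 159 bp in BRG1 and 955 ± 8.84 bp in control (SD, n = 2 each, two-sided exact permutation p = 1). BRG1 1 was the lowest and BRG1 4 the highest of the 4 libraries, so the groups overlapped. Without BRG1 4 the difference of 45.75 bp turned to −66.75 bp. The median list percentile was 95.8 ± 0.410 in BRG1 and 96.3 ± 0.511 in control (SD, n = 2 each, exact permutation p = 0.67), and the difference of −0.460 turned to 0.0515 with lists of equal length. Lists of different lengths give different percentiles, so members were also ranked among the same 18722 genes in each library by their strongest peak (gene percentile). The median gene percentile was 78.9 ± 2.76 in BRG1 and 79.2 ± 1.48 in control (SD, n = 2 each, exact permutation p = 1), from 80.3 and 78.2 in the control libraries and 77.0 and 80.9 in the BRG1 libraries. The gene percentile difference of −0.307 points turned to 0.738 without control 1 and to 1.64 without BRG1 1. Relative to the median width over all genes of the same library, the members' median width was 1.13 and 1.17 in the control libraries and 1.06 and 1.10 in the BRG1 libraries. This ratio was 1.15 ± 0.0267 in control and 1.08 ± 0.0334 in BRG1 (SD, n = 2 each, exact permutation p = 0.33). Both BRG1 libraries thus lay below both controls, by a difference of −0.0739 that was larger than the spread within either group. By the medians given above, this ratio was also lower in both BRG1 libraries than in both controls for mitochondrial ribosomal protein genes. Gene by gene, members had a median width ratio of 1.12 for BRG1 4 to control 1 and 1.18 to control 4. Over all genes with a peak in all 4 these were 1.11 and 1.16. For BRG1 1 members had 0.963 and 0.988, and all genes 0.985 and 1.00. With 2 libraries per group 0.33 is the lowest p the permutation test can give, so no comparison could pass a threshold of 0.05. In width in bp, list percentile and gene percentile the groups overlapped.

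Member by member, counts lay near those of all genes. In width, both BRG1 libraries lay above both controls at 16 of 70 members (22.9%, background 24.5%) and below both at 3 (4.29%, background 6.75%). In gene percentile, both lay above at 11 (15.7%, background 18%) and below at 12 (17.1%, background 17.3%).

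The 3 largest width differences with both BRG1 libraries above were at RPL3L, RPS25 and RPS13. The peak of RPL3L is the one whose summit lay outside its model and nearest to the end of MSRB1. RPL3L measured 613 bp and 606 bp in the control libraries and 623 bp and 1702 bp in the BRG1 libraries. In BRG1 4 alone its peak ran on over the place of a separate second peak of the other libraries, to 40018392. RPS25 measured 1074, 1075, 1079 and 1751 bp, and RPS13 measured 799, 739, 847 and 1161 bp. At RPL3L and RPS25, BRG1 1 exceeded the wider control by 10 and 4 bp, so nearly all of the difference came from BRG1 4. Narrower in both BRG1 libraries were RPL35A (1252, 1237, 1137 and 1145 bp), RPL19 (1030, 989, 966 and 952 bp) and RPL17 (977, 970, 927 and 962 bp).

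**Figure D5:**
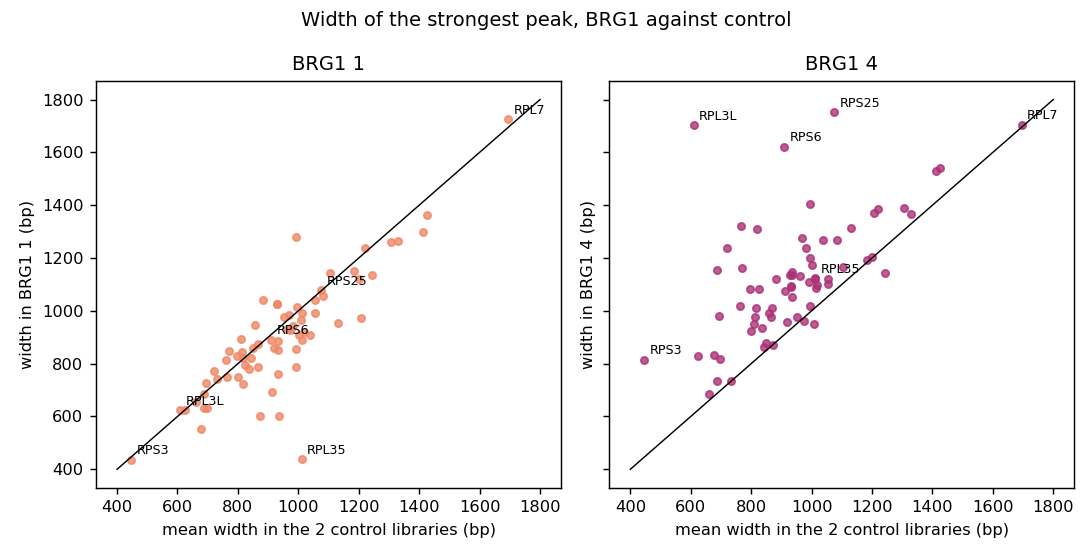
Width of the strongest peak in bp in BRG1 1 (left) and BRG1 4 (right) against its mean width in the 2 control libraries (x axis), with 1 point per ribosomal protein gene (n = 70) and the line of equal width. Points of BRG1 1 lie on both sides of the line, and most points of BRG1 4 lie above it.

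BRG1 4 differed from the other 3 libraries at these genes, its group partner included. As a single library it allows no test. Peaks of BRG1 4 were wider than those of control 1 at 64 of 70 members (91.4%, against 76.4% of all genes with a peak in all 4), with a median ratio of 1.12 (all genes 1.11). They were wider than those of BRG1 1 at 65 members (92.9%, against 79.8%), with a median ratio of 1.21 (all genes 1.13). BRG1 4 had the widest of the 4 peaks at 59 members (84.3%, background 65.8%). For mitochondrial ribosomal protein genes this share was 78.4%, so it was also above the background there. The windows of the open members held 98, 98, 99 and 89 peaks, or 1.40, 1.40, 1.41 and 1.27 per gene, with the fewest in BRG1 4. Over all genes with a peak in all 4 libraries the numbers per gene were 4.18, 4.12, 3.80 and 3.64, also lowest in BRG1 4. Members with more than 1 peak numbered 19, 20, 21 and 15, which is 27.1%, 28.6%, 30% and 21.4%, against 71.3%, 70.9%, 68.1% and 65.8% of all. RPS6, whose protein is phosphorylated by S6 kinase, had peaks of 360 and 970 bp in control 1, 460 and 849 bp in control 4, 408 and 890 bp in BRG1 1 and a single peak of 1622 bp in BRG1 4. The single peak of RPS6 overlapped both peaks of each other library. RPL35 had peaks of 379 and 439 bp in BRG1 1 and single peaks of 1024, 998 and 1121 bp in control 1, control 4 and BRG1 4.

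The order of the members by rank was nearly the same in 3 libraries and different in BRG1 4. Across the 70 members, Spearman's rho of the gene percentile was 0.959 between control 1 and control 4, 0.952 between control 1 and BRG1 1 and 0.959 between control 4 and BRG1 1. With BRG1 4 it was 0.676, 0.645 and 0.674. These values describe genes of the same libraries, which are not independent replicates. The median difference of a member between control 1 and control 4 was 2.12 points, and between control 1 and BRG1 4 it was 7.31 points, against 2.33 and 5.44 points over all genes. BRG1 4 was the highest or the lowest of the 4 libraries at 61 members (87.1%, background 76.7%), with 37 high (52.9%, background 39.7%) and 24 low (34.3%, background 37%). For mitochondrial ribosomal protein genes these shares were 75.7%, 60.8% and 14.9%.

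Differences of BRG1 4 ran in both directions. RPL7 had a list percentile of 98.3 in BRG1 4, against 93.8, 93.2 and 91.4 in the other libraries, and RPL26 had 98.0, against 93.2, 93.6 and 95.2. RPL35 stood at 86.8 in BRG1 4, against 93.9, 95.9 and 94.5, and RPL27A at 92.8, against 98.4, 98.4 and 98.3. In constancy of gene percentile the members were like other genes: its range over 4 libraries had a median of 8.62 points, against 8.46 points over all genes with a peak in all 4. Among genes with a mean gene percentile of at least 80 the medians were 5.57 against 6.64 points. The range of the list percentile was smaller at members, with a median of 2.54 against 4.76 points. Among genes with that mean of at least 80 it was 1.19 against 1.35 points. Mitochondrial ribosomal protein genes were like the members, with a median range of 2.71 points in list percentile and 8.78 points in gene percentile. At a mean gene percentile of at least 80 they had 1.06 and 5.41 points.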

How the data were processed

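The authors deposited 1 list of peaks per library in the narrowPeak layout, with a summit offset per peak. Per the submitters' processing notes, coordinates refer to Sscrofa11.1 and the tools were MACS2, SAMtools, Bowtie, BWA and FastQC, with no version or role. The fold ratio, the −log10 p-value, the −log10 q-value and the score of each peak were computed by the authors within each library and were used only within it, and the lowest deposited −log10 q was 1.31 to 1.35. Treatment of the Tn5 offset, duplicates and multiply mapped reads is not given in the sources used here, and each can change which peaks are called.

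Peaks were attached to RefSeq gene models with Python 3.11.15, numpy 2.4.6 and pandas 2.3.3, and the scripts were tested on simulated data. Each gene was represented by its peak of highest −log10 p. Groups were compared by two-sided exact permutation of library medians. Members and lists were chosen with earlier results of these data known. Named genes were the members without a peak, the 5 highest and 5 lowest by mean percentile, the 5 widest and 5 narrowest, the 3 largest group differences in width in each direction, and paralog pairs. Some genes under this rule are not reported here. Planned promoter motifs, protein identities and printed sequences, and distances to gene starts, were not made, because no sequence or strand was used here.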

Additional observations from a re-analysis of the deposited data

How the results depend on the processing

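The count of open members was 68 to 82 under every alternative run for it, the 82 coming from the wider symbol rule with chromosome X added, and no member was called in 1 group alone where that was recomputed. The width difference of 45.75 bp turned to −66.75 bp without BRG1 4 and, as a ratio to the all-gene median width, to −0.0739, with groups that did not overlap. The list percentile difference of −0.460 turned to 0.0515 with lists of 90851 peaks each. The gene percentile difference of −0.307 turned to 0.562 with the model alone, 0.233 with the wider symbol rule and chromosome X together, 0.768 with the strongest peak by fold, 0.384 with the widest peak and 0.287 without the 9 members nearest to another gene (an alternative chosen after seeing the data, like the gene-end window, which gave 69 open members). Leaving out each library in turn gave 70 to 70 open members, −66.75 to 158.25 bp in width, −0.822 to −0.0985 in list percentile and −2.26 to 1.64 in gene percentile, which turned without control 1 and without BRG1 1. Where a group was left with 1 library, only the value is given here. With replicate number as a block the 3 differences were 65.5 bp, −0.145 and 0.557 points (exact sign-flip test, p = 1, 0.5 and 1, where 0.5 is the lowest attainable). Same-numbered libraries did not deviate together, with correlations of −0.0192 for width and −0.0917 for gene percentile over 15252 genes. In total 65 of 76 alternative values kept their direction or, for counts, stayed within 1.5 times the reported count. The other 11 turned, for which the cause was not tested, and most of them were gene percentile differences. The 65 include every count of open members and of members called in 1 group alone. The total therefore does not show that the group differences were stable. Absolute depth is unknown, so a missing peak means not called at that depth.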
